A study of Mus musculus with 227 samples.

Results

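The 27 genes described here encode the enzymes that build cholesterol from acetyl-CoA and the proteins that set their transcription through SREBP2. They were chosen by symbol from a list of the pathway, and each was found in the count table of 31689 genes. All 27 had enough reads to be tested, among 15474 genes tested over all libraries. RNA was sequenced from primary mouse cerebrocortical cultures, made at embryonic day 16.5 from the first-generation offspring of FVB/N and C3B6F1 parents and kept in Neurobasal medium with B27 for 21 days. In the screen, 218 drugs were given for 8 h, each to the culture of 1 library, and 9 libraries came from cultures given vehicle (0.2% DMSO). The sources used here give no drug concentrations, and they do not say whether the 9 vehicle libraries came from separate cultures, so p-values measure the spread between these libraries, which may be technical.

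Cells make cholesterol from acetyl-CoA by way of mevalonate, farnesyl diphosphate, squalene and lanosterol. The transcription factor SREBP2 switches on the enzymes when membrane sterol is low. SCAP then carries the precursor of SREBP2 from the endoplasmic reticulum to the Golgi, where it is cut, and INSIG proteins hold SCAP back when sterol is plentiful. The brain makes its own cholesterol because lipoproteins do not cross the blood-brain barrier, and astrocytes are known to supply much of what mature neurons use.

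The labels place the libraries in 9 sequencing run codes and 57 lanes, with 4 libraries in most lanes. Vehicle libraries were present in 6 of the run codes, and the other 3 held drugs only. Drug libraries held 22.02 to 65.19 M counted reads (median 34.89 M) and vehicle libraries 31.4 to 43.77 M (median 38.14 M), so all members but Idi1 and Fdps were counted deeply. Neuronal and astrocytic markers were abundant, with a median over libraries of 879 CPM (reads of a gene scaled to a common library size) for Snap25 and 668 CPM for Gfap. Microglial Cx3cr1 (0.454 CPM) and endothelial Cdh5 (0.428 CPM) were close to 0. Vehicles 6, 7 and 8 stood apart from the other vehicles for most members, as described with the levels.

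Levels spanned a wide range along the pathway. The 3 suppliers of acetyl-CoA and acetoacetyl-CoA were Acly, which splits citrate, Aacs, which activates acetoacetate, and Acat2, the cytosolic thiolase. Acly was measured at 138 to 277 CPM in drug libraries (median 204) and at 177 to 288 CPM in vehicles (median 209). Acat2 had medians of 30.2 CPM with drugs and 31.7 CPM with vehicle, and Aacs had 68.3 CPM with drugs and 69.8 CPM with vehicle. In the mevalonate arm, Hmgcs1, the cytosolic HMG-CoA synthase, was the most abundant member per length of transcript, at 146 CPM per kilobase of transcript in the median vehicle. Its level lay between 217.5 and 1084 CPM with drugs (median 466.3) and between 304 and 1064 CPM with vehicle (median 475.5). The kinases Mvk (median 15.9 CPM with drugs and 17.4 CPM with vehicle) and Pmvk (26.1 CPM with drugs and 25.7 CPM with vehicle), and the decarboxylase Mvd (17.36 CPM with drugs and 18.04 CPM with vehicle), had fewer reads. In the GENCODE annotation of GRCm38, Hmgcs1 lies on chromosome 13 at 119690379 to 119708260 (plus strand) and Pmvk on chromosome 3 at 89454541 to 89469013 (plus strand).

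Idi1, the isopentenyl diphosphate isomerase, had medians of 0.887 CPM with drugs and 1.02 CPM with vehicle. Fdps, the farnesyl diphosphate synthase, had 1.76 CPM with drugs and 2.02 CPM with vehicle. Their vehicle medians per length were 0.34 and 1.38 CPM per kilobase, the lowest of the 27 members. Part of the transcript sequence of these genes also occurs in transcripts of other genes, in 17.7% of 50-base windows for Idi1 and 26.2% for Fdps, and for Acat2 the share was 39.1%. Reads from shared windows could be split or discarded in counting, so the levels of these members are uncertain. Ggps1, which makes geranylgeranyl diphosphate for protein prenylation, had medians of 34.5 CPM with drugs and 33.3 CPM with vehicle and varied least, with a log2 SD of 0.08 over drugs and 0.10 over vehicles.

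Among the enzymes that form squalene and close it to lanosterol, Sqle, the squalene epoxidase, reached medians of 105 CPM with drugs and 106 CPM with vehicle. Fdft1, the squalene synthase, had 40.2 CPM with drugs and 43.3 CPM with vehicle, and Lss, the lanosterol synthase, 35.1 CPM with drugs and 36.2 CPM with vehicle. For the steps that turn lanosterol into cholesterol, the medians with drugs ran from 6.213 CPM for Ebp, a sterol isomerase, to 75.8 CPM for Msmo1, a methylsterol oxidase. With vehicle Ebp had a median of 6.56 CPM and Msmo1 81.3 CPM. Cyp51, the lanosterol demethylase, had 68.3 CPM with drugs and 73.2 CPM with vehicle, and Dhcr7, a sterol reductase of the final steps, 52.6 CPM with drugs and 58.4 CPM with vehicle. Of the sterol reductases earlier in these steps, Tm7sf2 had 13.6 CPM with drugs and 16.2 CPM with vehicle, and Lbr 11.2 CPM with drugs and 10.6 CPM with vehicle. The dehydrogenase Nsdhl had 35.3 CPM with drugs and 39.3 CPM with vehicle, and the ketoreductase Hsd17b7 33.0 CPM with drugs and 34.2 CPM with vehicle. The desaturase Sc5d had 54.3 CPM with drugs and 55.4 CPM with vehicle. For each of these enzymes the median with drugs lay inside the range of the vehicles.

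Of the regulators, Srebf2, the gene of SREBP2 itself, had medians of 239 CPM with drugs and 253 CPM with vehicle, and Scap, on chromosome 9 at 110333288 to 110384950 (plus strand), 127 CPM with drugs and 125 CPM with vehicle. Insig1, a target of SREBP2 that feeds back on it, lay between 19.0 and 96.4 CPM with drugs (median 36.7) and between 26.5 and 70.7 CPM with vehicle (median 40.3). Insig2, its companion in the endoplasmic reticulum, lay within 29.4 to 46.6 CPM with drugs and 33.5 to 41.9 CPM with vehicle. Stard4, a soluble sterol carrier, had the widest span of all members, from 11.5 to 125 CPM over drugs and from 16.7 to 96.1 CPM over vehicles, a 5.76-fold range among vehicles alone.

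**Figure D1:**
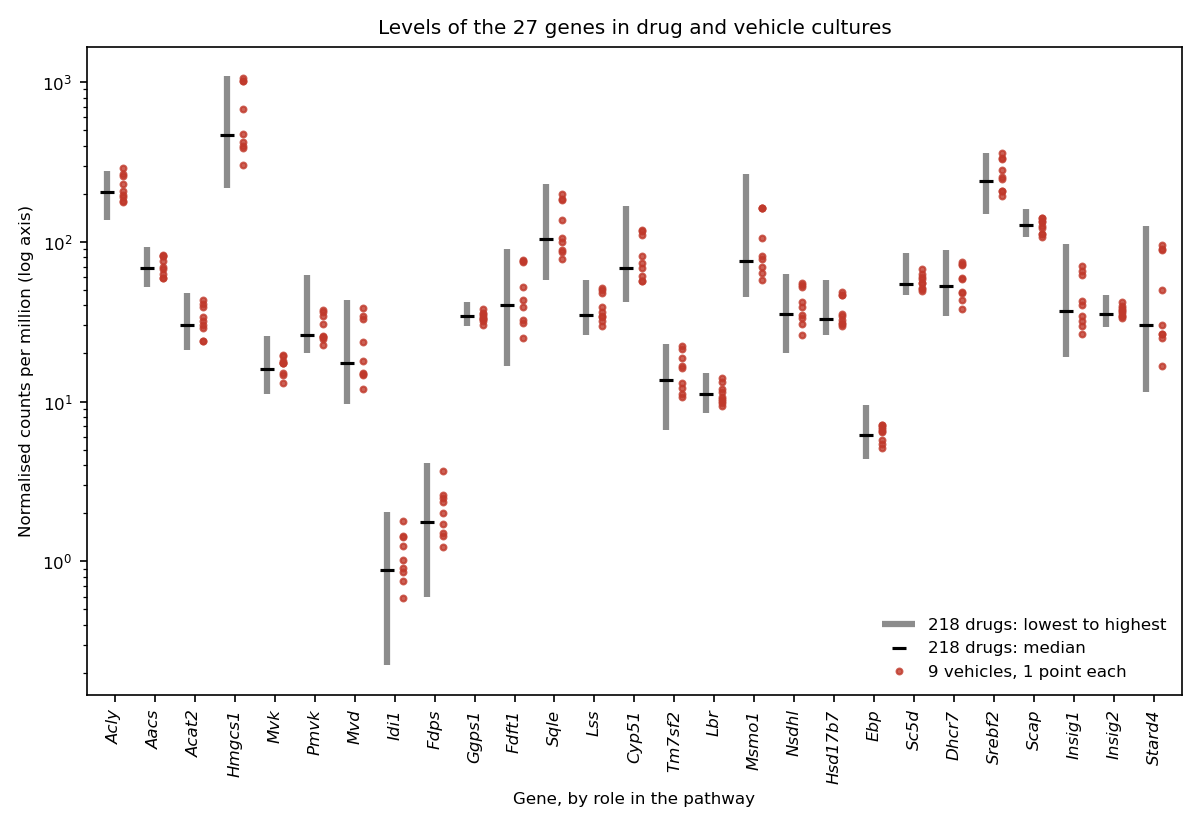
Levels of the 27 genes on a log axis of CPM (TMM scaled), in the order of the pathway. Grey bars run from the lowest to the highest of 218 drugs with the median as a black tick, and red points are the 9 vehicles; for Stard4 the vehicles alone extend from 16.7 to 96.1.

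The plot of levels shows most drugs inside the vehicle range for every member, from 151 of 218 for Msmo1 to 213 for Ggps1. The vehicles did not span all drug values. Pmvk ran from 20.2 to 62.3 CPM with drugs and from 22.5 to 37.4 CPM with vehicle. Hmgcs1 had 1064, 1008 and 1012 CPM in vehicles 6, 7 and 8 and 304 to 679 CPM in the other vehicles. These libraries held the 3 highest vehicle values for 21 of 27 members and the 3 lowest for Ggps1 and Scap, with Scap at 112, 107 and 111 CPM against 122 to 141 CPM in the remaining vehicles. Vehicle 2 was lowest for 17 members. Between drugs, the median member had a log2 SD of 0.28, against 0.19 for the median of all genes tested. Between vehicles the same medians were 0.33 and 0.18, so the members varied more than most genes, and they did so without any drug.

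A member score was formed as the mean of log2 CPM over the 27 genes minus the mean of the 9 vehicles. It ranged from -0.69 to 0.62 over drugs (median -0.13, SD 0.30) and from -0.43 to 0.45 over vehicles (SD 0.34). Of 218 drugs, 170 lay inside the range of the vehicles, 43 below and 5 above it. Run code went with 34.7% of the variance of the score. Lane went with 75.8%, a share that already holds that of run code. With 57 lanes of few libraries, lane takes up part of the variance of any gene, so all genes are given beside it. For single members the median share that went with lane was 71.9%, from 47.2% for Ggps1 to 79.4% for Srebf2, against 56.9% for the median of all genes tested. Median scores by run code reached from -0.42 to 0.24. In 1 run code with 2 vehicles the medians of its lanes ranged from -0.32 to 0.42. The sources used here do not say what else the libraries of a lane share, such as plating or treatment day, so lane and culture cannot be told apart.

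**Figure D2:**
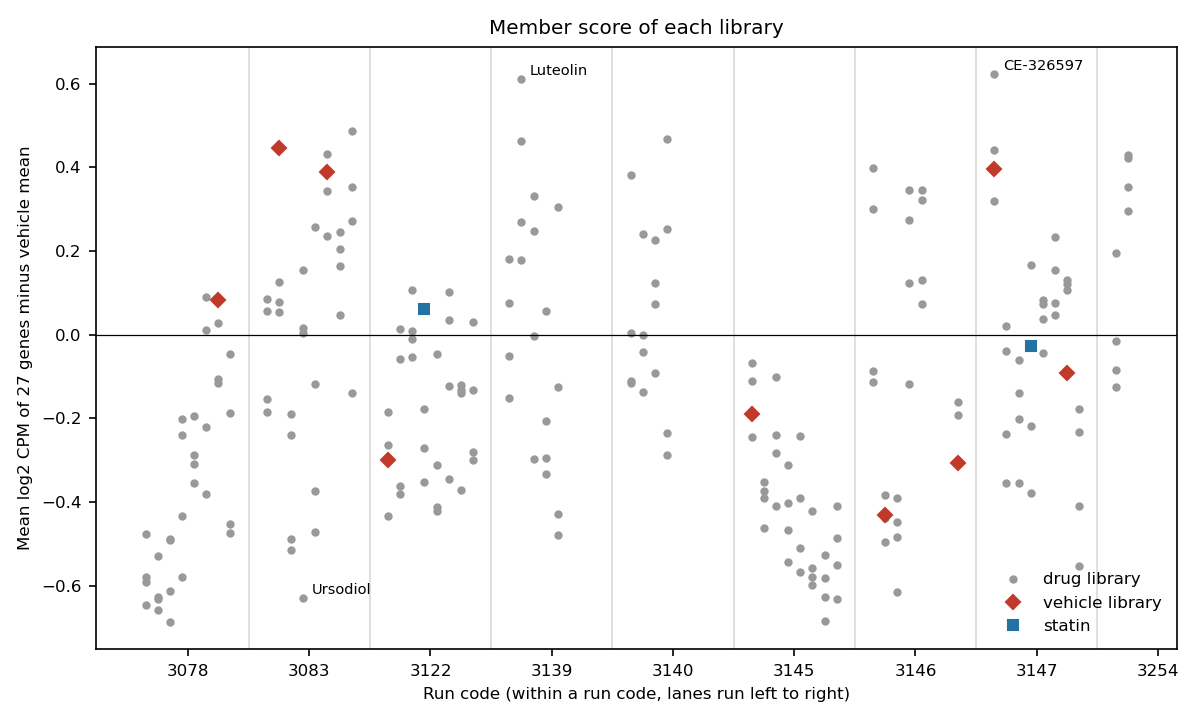
Member score (mean log2 CPM of 27 genes minus the vehicle mean) of each library by sequencing run code, lanes from left to right within it. Drug libraries are grey, statins blue squares and vehicles red diamonds; vehicles reach from -0.43 to 0.45, and only 5 drugs lie above them.

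The plot of scores by run code shows lanes at different heights, and some lanes were spread within themselves. In 2 run codes the median library lay below the vehicle mean by more than in the others, at -0.41 and -0.42. Each of these held a single vehicle, which scored above its run median, at 0.08 and -0.19. Comparisons with all 9 vehicles therefore hold differences between run codes, and each drug was also compared with the other libraries of its own run code.

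The levels of most members moved together across libraries. With values centred on the run-code median, the median Pearson r over the 351 pairs of members was 0.76 over the 218 drug and 9 vehicle libraries, against -0.001 over all pairs of genes tested. It was 0.81 without centring and 0.65 centred on lane. These points share run code, lane and depth, so the coefficients are a description and carry no test. The closest pairs were Hmgcs1 with Sqle (0.98), Hmgcs1 with Stard4 (0.97) and Sqle with Fdft1 (0.97). All 300 pairs without Scap and Ggps1 were positive, the lowest being Insig2 with Ebp at 0.37.

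Scap and Ggps1 did not follow the other members. Scap was inversely related to all of the other 25, with r between -0.85 (Hmgcs1) and -0.57, and its r with Ggps1 was 0.08. Ggps1 had r between -0.33 and -0.12 with these 25. Scap encodes the escort of SREBP2, and the product of Ggps1 leaves the path to sterols for protein prenylation. Centred on lane, Scap kept r between -0.76 and -0.39 with the 25, while Ggps1 had -0.17 to 0.07.

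**Figure D3:**
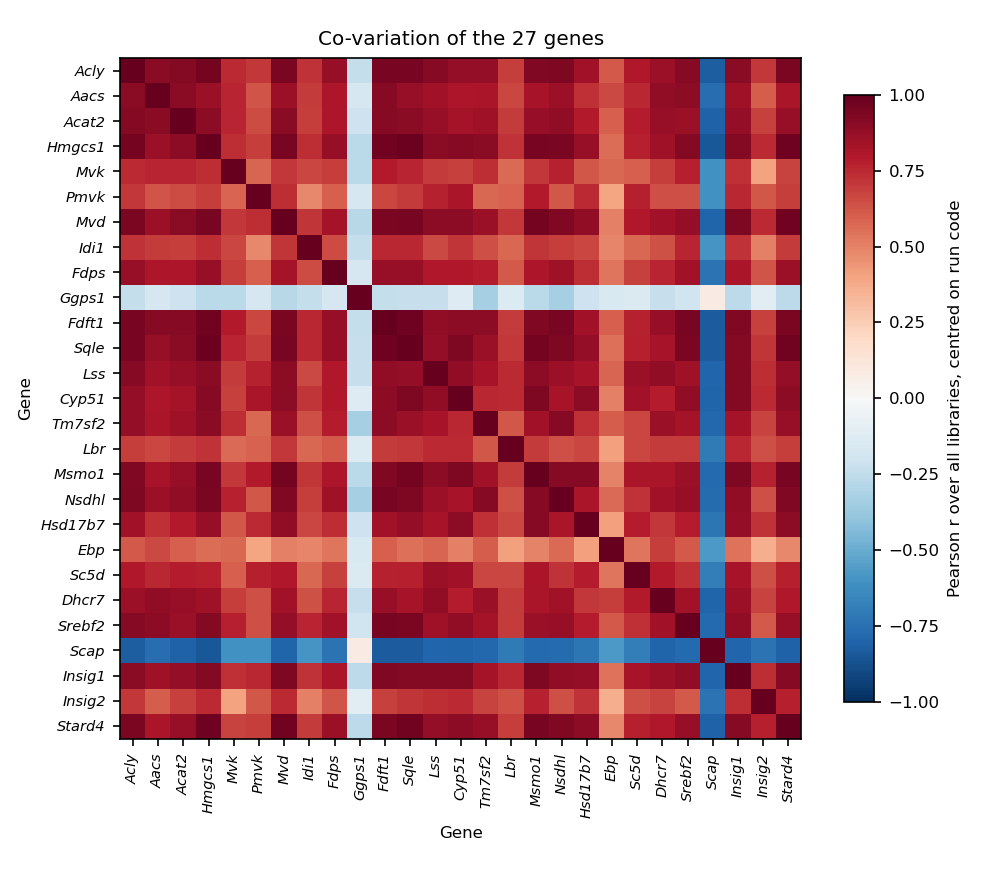
Pearson r between the 27 genes over the 218 drug and 9 vehicle libraries, log2 CPM centred on the run-code median, in pathway order. Red marks positive and blue negative r; Scap forms a blue band (-0.85 to -0.57 with all but Ggps1) and Ggps1 a pale one.

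Promoters were read beside the matrix of correlations. Sequences of 250 bases before to 50 after the start were at hand for 23 members from RefSeq (GRCm38.p6), in 29 windows, some genes having several. They were read for the sterol regulatory element TCACNCCAC, its core CACNCCAC, the CCAAT box and the GC box GGGCGG, on both strands; every match of the element also holds the core. The CCAAT box, bound by NF-Y, a known partner of SREBP2, was in 20 of the 29 windows (69.0%) and in 37.4% of 32851 windows of all genes. The GC box was in 79.3% of member windows and 35.7% of all windows. The element was in 1 window, that of Hmgcs1 (3.45% of member windows and 1.24% of all windows), and the core in those of Hmgcs1, Insig1 and Acat2 (10.3% of member windows; 2050 of the 32851 windows of all genes). Every member with a window had a CCAAT box except Acat2, Aacs and Scap. A match is a description of letters and not of binding. Windows of 4 members are printed 5′ to 3′ on the strand of the gene, with matches to the element, its core or the CCAAT box on either strand in capitals, because they show the member with the full element, 2 members of the co-varying group and the inverse member.
Hmgcs1: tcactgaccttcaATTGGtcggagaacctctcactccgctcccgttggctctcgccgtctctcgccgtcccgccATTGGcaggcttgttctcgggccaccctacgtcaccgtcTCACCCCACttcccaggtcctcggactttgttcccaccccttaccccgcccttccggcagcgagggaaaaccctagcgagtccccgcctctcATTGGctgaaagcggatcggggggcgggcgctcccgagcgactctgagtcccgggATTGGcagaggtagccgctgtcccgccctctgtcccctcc
Insig1: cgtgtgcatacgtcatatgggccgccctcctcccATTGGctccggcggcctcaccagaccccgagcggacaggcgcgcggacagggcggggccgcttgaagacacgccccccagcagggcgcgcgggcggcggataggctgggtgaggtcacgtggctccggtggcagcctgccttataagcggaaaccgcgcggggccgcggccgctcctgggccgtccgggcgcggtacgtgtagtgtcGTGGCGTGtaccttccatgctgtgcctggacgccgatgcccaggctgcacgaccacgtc
Cyp51: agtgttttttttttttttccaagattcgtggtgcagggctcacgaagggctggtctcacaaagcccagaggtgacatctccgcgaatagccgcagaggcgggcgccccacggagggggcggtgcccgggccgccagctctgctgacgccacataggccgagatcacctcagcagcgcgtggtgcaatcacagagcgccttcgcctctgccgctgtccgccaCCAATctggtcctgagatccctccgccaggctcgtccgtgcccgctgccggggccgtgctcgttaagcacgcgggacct
Scap: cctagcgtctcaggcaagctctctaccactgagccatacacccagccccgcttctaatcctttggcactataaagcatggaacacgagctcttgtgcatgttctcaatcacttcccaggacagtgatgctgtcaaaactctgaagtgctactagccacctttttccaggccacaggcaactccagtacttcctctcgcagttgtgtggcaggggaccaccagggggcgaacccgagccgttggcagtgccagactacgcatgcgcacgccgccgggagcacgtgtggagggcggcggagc
These lie at chr13:119690101-119690400 (plus strand) for Hmgcs1, chr5:28071162-28071461 (plus) for Insig1, chr5:4104648-4104947 (minus) for Cyp51 and chr9:110333038-110333337 (plus) for the first of 2 windows of Scap. Each covers the upstream flank, the start of the gene and the first transcribed bases. In the Hmgcs1 window the element began at position -137 from the start, and CCAAT boxes on the opposite strand stood at -237, -176, -45 and 10. The Insig1 window held a core match at -9, and that of Cyp51 a CCAAT box at -29. The Scap window had no capital letters, since these motifs had no match in it, which says nothing about binding elsewhere. Windows of Fdps, Fdft1, Sqle and Stard4 were not read.

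The member score moved with markers of neurons and astrocytes and with activity-regulated genes. Over all 218 drug and 9 vehicle libraries, centred on run code, Pearson r was 0.82 with a score over 8 neuronal markers (Spearman 0.85) and -0.87 with a score over 9 astrocytic markers (Spearman -0.88). It was 0.74 with a score over 12 activity-regulated genes (Spearman 0.75), the immediate-early and related genes that follow synaptic firing. Leaving out the 2 libraries farthest from the median gave 0.81, -0.86 and 0.73. Centred on lane, r was 0.74, -0.80 and 0.61. In vehicles 6, 7 and 8 the neuronal score was 0.18 to 0.27 and the astrocytic score -0.36 to -0.24. Vehicle 1 had the lowest neuronal and the highest astrocytic score of the vehicles, at -0.32 and 0.40. The vehicle lowest for most members was another, vehicle 2 (17 of 27 members). In bulk RNA, fewer cells of a type and less RNA per cell cannot be told apart, and the part of cell makeup in the levels of the members was not tested.

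All 8 neuronal markers were positively related to the member score, from Map2 (0.44) to Snap25 (0.85), and all 12 activity-regulated genes, from Fos (0.52) to Bdnf (0.77). Of the 9 astrocytic markers, 8 were negative, down to -0.91 for Gja1 and -0.89 for Aqp4, and the glutamate transporter Slc1a2 was positive at 0.69. Oligodendrocyte precursor markers gave 0.52, oligodendrocyte markers 0.36 and microglial markers -0.48, the last from genes near 0 CPM. Endothelial markers gave 0.20 and fibroblast markers -0.18.

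**Figure D4:**
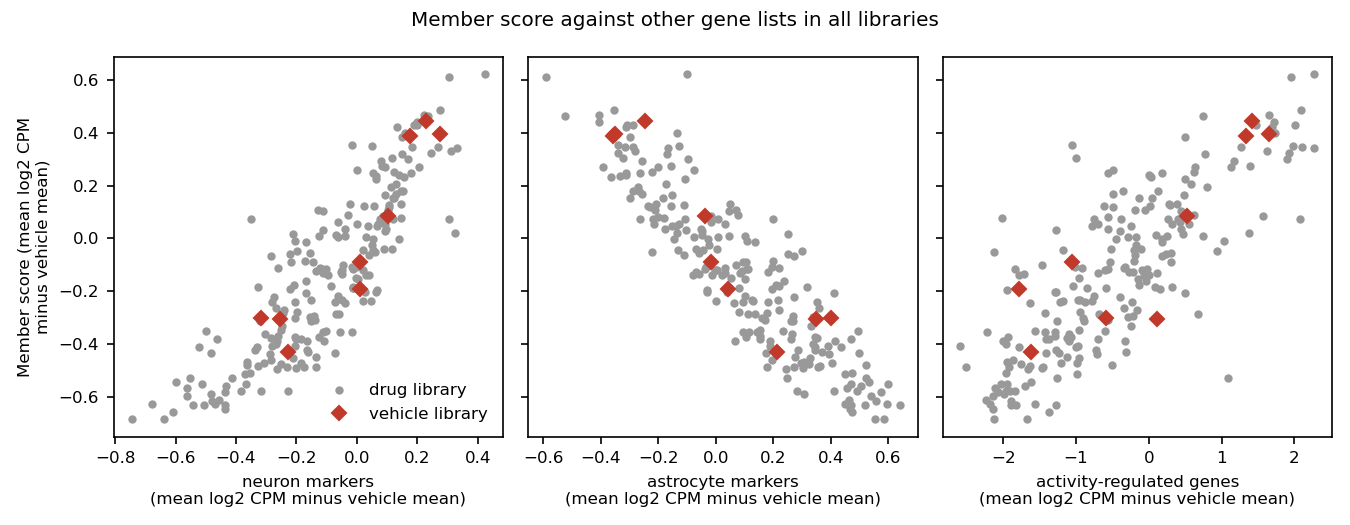
Member score against the mean log2 CPM of 8 neuronal, 9 astrocytic and 12 activity-regulated genes, each minus the vehicle mean, in each library (218 drugs grey, 9 vehicles red). The member score is higher where the neuronal and activity scores are higher and lower where the astrocytic score is higher (r = 0.82, 0.74 and -0.87 centred on run code).

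The scatter of the scores has vehicles among the drugs in each panel. Over 15 measured genes of LXR targets and sterol handling, LXR being the nuclear receptor that senses oxysterols, the score had r = -0.84 with the member score, and 4 of the 15 genes were positive. Single genes gave -0.86 for Abca1, which exports cholesterol, -0.89 for Cyp7b1, an oxysterol hydroxylase, and -0.88 for the lysosomal sterol carrier Npc2. Cyp46a1, the neuronal enzyme that clears cholesterol as an oxysterol, was positive at 0.87, as was Mylip at 0.70. The 13 genes of fatty acid synthesis were mixed, 7 of them positive (r = -0.26 for their score): Me1 (0.80), Elovl6 (0.78) and Scd1 (0.72) followed the members, whereas Srebf1, the gene of the sister factor SREBP1, went against them (-0.77). Among the 10 non-members nearest to the member score, of 13073 genes with a mean of at least 1 CPM, were Acsl4 and Ppme1 (r = 0.94 each), Dclk1 and Slc2a3 (0.93 each), over the same libraries.

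Against the 9 vehicles no member passed the threshold with any drug. In edgeR's quasi-likelihood test with Benjamini-Hochberg adjustment over all genes, 0 of 5886 pairs of member and drug had an adjusted p under 0.05, while 0.12% of all gene-drug tests did, in 17 drugs. At an unadjusted p under 0.05 there were 99 member pairs, or 1.68%, against 3.85% of all tests. The pair with the lowest adjusted p was Mvk with Nilotinib, a kinase inhibitor, at 11.1 CPM against 13.1 to 19.5 CPM in vehicles (median 17.4; log2 fold change -0.62 ± 0.19 SE, adjusted p = 0.061 in edgeR). Leaving out vehicle 3, the lowest of the 9 for Mvk, brought this pair past the threshold, where 7.41% of all genes were called lower. DESeq2 called 5 members lower with Nilotinib (Acly, Idi1, Tm7sf2, Mvk and Nsdhl), where it called 8.63% of all genes lower, and Pmvk higher with Luteolin, where it called 0.767% higher.

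The count depended on which vehicles were kept. Without vehicles 6, 7 and 8, a choice made after seeing the data, 31 pairs passed in edgeR, all higher, against 0.209% of all gene-drug tests. They were 12 members with Luteolin, where 4.35% of all genes were called higher, and 8 with CE-326597, where 1.42% were. Mitoxantrone·HCl had 8, beside 3.0% of all genes (457 of 15345) called higher, and Fenofibrate 3, beside 7.59%. The vehicles left out had been noticed for their high levels of the members, so leaving them out by itself raises most of these differences. Leaving them out also narrows the spread between vehicles that the test uses. For Pmvk with Luteolin the difference was 1.09 ± 0.23 (SE) against all vehicles and 1.27 ± 0.13 without vehicles 6, 7 and 8. P-values without these vehicles, here and for the drug classes, therefore depend on the choice and are no independent test. With Luteolin, Msmo1 then differed by 1.79 ± 0.24 (SE, adjusted p = 0.0183 in edgeR) and Insig1 by 1.41 ± 0.21 (adjusted p = 0.02). Mitoxantrone·HCl, an inhibitor of topoisomerase II, is named after its values were seen; its Stard4 differed by 2.02 ± 0.38 (adjusted p = 0.0347 in edgeR).

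Statins block the rate-limiting reductase of the mevalonate arm, and SREBP2 targets are known to rise when cells lack sterol. In these cultures Hmgcs1 had 633 CPM with Lovastatin and 537 CPM with Simvastatin, against a vehicle mean of 639 ± 309 CPM (SD, n = 9; log2 fold change -0.12 ± 0.46 SE). Insig1 had 45.9 CPM with Lovastatin and 41.1 CPM with Simvastatin, against 44.8 ± 16.7 CPM in vehicles. Both drugs lay inside the vehicle range for both genes. With both statins taken as replicates, 0 members passed in edgeR or DESeq2, among 0.0% of all genes in edgeR. At an unadjusted p under 0.05 there were 0 members in either tool, and 0.509% of all genes in edgeR. Without vehicles 6, 7 and 8 the count stayed at 0, with 3 members and 2.86% of all genes at an unadjusted p under 0.05 in edgeR. The median member difference was -0.04 against 9 vehicles and 0.19 against 6, and the highest against 9 was 0.13 ± 0.14 for Lbr. The mean score of the statins was 0.02 against vehicle, 0.11 centred on run code and 0.19 centred on lane. Centred on run code, their scores were -0.02 and 0.24, and these scores were not tested. The median standard error over members was 0.22 on the log2 scale, so differences of that size were not detectable.

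Benztropine Mesylate, Clemastine Fumarate and Trazodone·HCl are known to inhibit late enzymes of the pathway, such as the isomerase EBP or the reductase DHCR7. Ebp itself had 5.357, 5.113 and 7.055 CPM with these drugs in that order, against 6.36 ± 0.75 CPM in vehicles (SD, n = 9). Dhcr7 had 38.6, 53.9 and 52.5 CPM, against 38.1 to 75.2 CPM in vehicles. As a class they had 0 members past the threshold in edgeR and 0 in DESeq2, among 0.0% of all genes in edgeR, with a median member difference of -0.24. At an unadjusted p under 0.05 there were 0 members in either tool, and 2.01% of all genes in edgeR. Their scores were -0.46, 0.01 and -0.19 against vehicle, and -0.03, 0.19 and -0.26 centred on run code. Without vehicles 6, 7 and 8 the median member difference of the class was -0.004.

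The triazole antifungals Posaconazole and Voriconazole are aimed at the fungal counterpart of Cyp51. Cyp51 had 68.3 CPM with Posaconazole and 107 CPM with Voriconazole, against 56.5 to 119 CPM in vehicles. Of the 27 members, 24 were on the higher side with a median difference of 0.12, led by Insig1 at 0.39 ± 0.37 SE. In edgeR and DESeq2 0 members passed (0.0% of all genes in edgeR). None had an unadjusted p under 0.05, as 0.985% of all genes did in edgeR. Voriconazole shared its lane with Luteolin and scored 0.46 against vehicle, but 0.10 centred on the lane. Without vehicles 6, 7 and 8 the median difference of the class was 0.33, with 0 members past the threshold and 4 at an unadjusted p under 0.05 in edgeR, as were 3.81% of all genes.

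Cationic amphiphilic antidepressants are known to perturb sterol traffic through lysosomes. Of these, 5 tricyclics had a median member difference of -0.29 and 6 serotonin reuptake inhibitors -0.19. For each class edgeR and DESeq2 called 0 members. Of all genes edgeR called 0.0% for both classes, and DESeq2 called 1.9% for tricyclics and 0.0% for the reuptake inhibitors. With tricyclics Hmgcs1 averaged 432 ± 202 CPM (SD, n = 5), against 639 ± 309 CPM in 9 vehicles (log2 fold change -0.56 ± 0.36 SE), and Scap averaged 139 ± 15.8 CPM against 125 ± 13.0 CPM (0.15 ± 0.08). The mean score of the tricyclics was -0.27 against vehicle and -0.005 centred on run code, and without vehicles 6, 7 and 8 the median member difference was -0.02 for tricyclics and 0.03 for the reuptake inhibitors, with 0 members past the threshold in edgeR. The tricyclic libraries also had a median difference of 0.25 over astrocytic and -0.35 over neuronal markers against vehicle. At an unadjusted p under 0.05, 1 member (Ebp, -0.27 ± 0.10) and 3866 genes in all differed for tricyclics in edgeR, and 4 members in DESeq2; for the reuptake inhibitors no member did in either. The 5 fibrates, activators of PPAR alpha, had a median member difference of 0.04 and 0 members past the threshold or at an unadjusted p under 0.05 in either tool. Of all genes, edgeR called 0.0% for fibrates and had 12.1% at an unadjusted p under 0.05, and DESeq2 called 0.321%. Without vehicles 6, 7 and 8 the median over members was 0.30, with 0 members past the threshold and 19 at an unadjusted p under 0.05 in edgeR, as were 20.6% of all genes.

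Within their own run codes, 22 of 5886 member-drug pairs passed the threshold (0.374%), 15 higher and 7 lower, in 7 drugs. This used limma over all libraries with run code as a term, where 0.46% of all gene-drug tests passed, a share close to that of the members. At an unadjusted p under 0.05 the shares were 4.86% of member pairs and 4.96% of all tests. In limma, 17 of the 22 pairs came from Luteolin, CE-326597 and Ursodiol.

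Luteolin, a plant flavone, was in a run code without vehicle, and 6 members were higher with it than in the other 19 libraries of that run code, where 3.91% of all genes were called higher. Pmvk, the phosphomevalonate kinase, had 62.3 CPM with Luteolin and 24.5 to 36.9 CPM in the rest of the run (median 27.1), a log2 difference of 1.133 ± 0.185 (SE; limma adjusted p = 2.05e-06). Msmo1 had 266 CPM with Luteolin against 53.5 to 160.0 CPM in the rest of the run (1.58 ± 0.45), and Cyp51 149 CPM with Luteolin against 54.1 to 111 CPM in the rest (0.99 ± 0.34). Each of these 3 genes lay above every other library of the run. Hsd17b7 (0.69 ± 0.20), Mvk (0.60 ± 0.17) and Sc5d also rose. Luteolin gave the highest value of its run for 18 of 27 members, while Scap had 116 CPM against 110.5 to 149 CPM in the rest.

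CE-326597, a compound known here by its code, was higher than the other 31 libraries of its run code for 4 members, where 2.39% of all genes were called higher. Sc5d had 85.1 CPM with CE-326597, against 51.1 to 65.02 CPM in the rest of the run (0.60 ± 0.13 SE, limma adjusted p = 0.00163). Cyp51 had 168 CPM with CE-326597 against 49.6 to 119 CPM in the rest (1.2 ± 0.33). Pmvk had 47.8 CPM with CE-326597 against 23.9 to 37.4 CPM in the rest (0.81 ± 0.19), and Hsd17b7 57.7 CPM with CE-326597 against 27.3 to 46.6 CPM in the rest (0.74 ± 0.20). All 4 lay above every other library of the run, its 2 vehicles included. CE-326597 was the highest of its run for 20 of 27 members.

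Ursodiol, a bile acid, was lower than the other 31 libraries of its run code for 6 members, where 9.65% of all genes were called lower, and higher for Scap, where 9.37% were called higher. Hmgcs1 had 264 CPM with Ursodiol against 303 to 1075 CPM in the rest of the run (-1.25 ± 0.47 SE, limma adjusted p = 0.0478), and Insig1 19.0 CPM with Ursodiol against 21.8 to 73.7 CPM in the rest (-1.194 ± 0.406). Idi1 had 0.223 CPM with Ursodiol against 0.504 to 2.03 CPM in the rest (-2.02 ± 0.46), and Tm7sf2 8.07 CPM with Ursodiol against 10.1 to 22.7 CPM in the rest (-0.96 ± 0.30). Each of these 4 was below every other library of the run, vehicles 6 and 7 included. Dhcr7 (-0.72 ± 0.26) and Lbr also fell, and Scap rose, with 149.7 CPM against 107 to 145 CPM in the rest (0.31 ± 0.11).

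**Figure D5:**
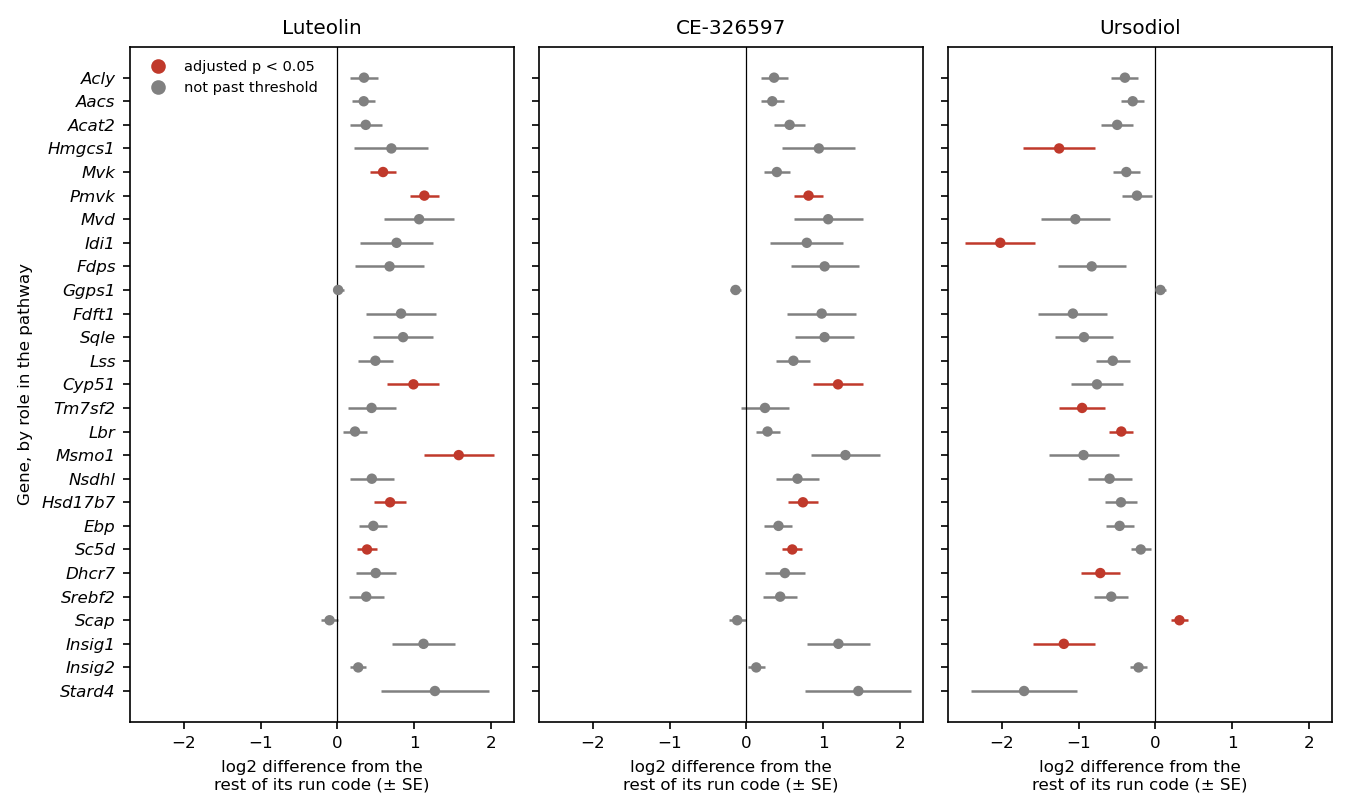
Log2 difference (± SE, limma with run code) of each of the 27 genes between the library of Luteolin, CE-326597 or Ursodiol and the rest of its run code. Red marks an adjusted p under 0.05; members lie to the right of 0 for 26 of 27 with Luteolin and 25 of 27 with CE-326597, and to the left for 25 of 27 with Ursodiol.

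The plot of the 3 drugs shows the members to one side of 0 apart from Scap and Ggps1. Other genes differed in the same libraries. Of all genes, 3.91% were called higher and 4.95% lower with Luteolin, and 2.39% and 1.5% with CE-326597. With Ursodiol the shares were 9.37% and 9.65%. Within their run codes, the 12 activity-regulated genes had a median difference of 2.08 with Luteolin and 2.72 with CE-326597, with 0 and 1 past the threshold (Fos, 2.82 ± 0.87 with CE-326597). The score over these genes, minus the vehicle mean, was 2.274 with CE-326597. The other libraries of its lane had 0.7682 (CE-210666), 1.719 (PF-05019702-00) and 1.656 (vehicle 8), so much of this difference was also present in an untreated library. With Luteolin the score was 1.95, against 0.6376, 0.1252 and 0.7476 in the rest of its lane. With Ursodiol 6 of 8 neuronal markers fell, among them Snap25 (-0.63 ± 0.20), and 4 of 9 astrocytic markers rose, among them Gfap (1.57 ± 0.47). Of the LXR and sterol handling genes, 6 rose with Ursodiol, among them Abca1 (1.46 ± 0.51), and 3 fell, among them Cyp46a1 (-0.52 ± 0.15). Of the fatty acid genes, 4 rose with Luteolin, namely Scd1 (1.263 ± 0.291), Fasn, Elovl6 and Scd2, and Mlxipl and Thrsp fell. With Ursodiol 3 of the 13 rose, namely Srebf1 (0.73 ± 0.24), Fads2 (0.35 ± 0.12) and Thrsp (0.80 ± 0.30). With CE-326597 the neurofilament genes Nefl (1.132 ± 0.256) and Nefm rose, and Abcg1, a sterol exporter, fell (-0.62 ± 0.14). With Luteolin the oligodendrocyte lineage genes Olig1 (-0.73 ± 0.16) and Cnp (-0.60 ± 0.20) fell. None of the 9 astrocytic markers passed with Luteolin. Nearest to the threshold were Gfap (-1.35 ± 0.48), Aqp4 (-1.45 ± 0.52) and Sox9 (-0.71 ± 0.26). Slc1a2 (0.13 ± 0.18) and Aldh1l1 (0.08 ± 0.17) lay above 0, and the rest of the list below it. The part of these changes in the differences of the members was not tested.

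The other libraries of a lane, its lane mates, were compared with the run code. Member scores of the lane mates of Luteolin were 0.18 to 0.46, in a run code with a median of 0.03. For CE-326597 they were 0.32 to 0.44 (run median -0.002). Those of Ursodiol lay near their run median of 0.07, at 0.005 to 0.15. Luteolin was set beside the 3 other libraries of its lane in limma with lane as the term. It kept 1 member past the threshold, where 2.5% of all genes (393 of 15474) were called higher. This was Pmvk (32.3, 29.5 and 32.2 CPM in the lane mates, a difference of 0.99 ± 0.16). CE-326597 kept 0, where 0.271% were called higher, and its Sc5d, at 0.44 ± 0.12, fell just short of the threshold. Vehicle 8 was a lane mate of CE-326597 and scored 0.40, against 0.62 for CE-326597. For Ursodiol the count went up instead, to 18 members lower, where 7.92% of all genes were called lower, and Scap higher, where 6.81% were called higher. Over all drugs, 49 pairs passed with lane as the term, among 0.584% of all gene-drug tests. Hmgcs1 had 264 CPM with Ursodiol and 611, 721 and 586 CPM in its lane mates (-1.27 ± 0.36, adjusted p = 0.024 in limma), and Stard4 13.2 CPM with Ursodiol against 56.3, 50.3 and 41.1 CPM in the lane mates (-1.89 ± 0.53). Ursodiol was below all 3 lane mates for 25 of 27 members.

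Pmvk also rose with Formoterol, an agonist of beta-adrenergic receptors, with 43.8 CPM against 21.9 to 30.8 CPM in the other 31 libraries of its run (0.85 ± 0.19 SE, limma adjusted p = 0.00342), where 0.659% of all genes were called higher. Beside its lane mates the difference of Pmvk was 0.75 ± 0.17, where 0.407% of all genes were called higher. The other members did not go with it, since 5 of 27 had differences above 0 with Formoterol (median -0.13), and Hmgcs1 was at 240 CPM. The 3 drugs with Pmvk called were Luteolin, CE-326597 and Formoterol. Ggps1 was higher with Nilotinib (40.5 CPM against 32.1 to 37.5 CPM in the rest of its run; 0.19 ± 0.07) and lower with Fenofibrate (30.4 CPM against 31.2 to 36.6 CPM in the rest of its run; -0.18 ± 0.07), in libraries where 10.2% and 13.6% of all genes were called in that direction. Lbr was higher with Fenofibrate at 14.8 CPM against 8.91 to 13.6 CPM in the rest (0.40 ± 0.16), where 13.7% of all genes were called higher. With lane as the term Ggps1 passed with neither Nilotinib nor Fenofibrate in limma, and Lbr did not pass with Fenofibrate. Nilotinib then had Lbr, Cyp51 and Dhcr7 higher, where 9.39% of all genes were called higher, and Fenofibrate had Scap higher, where 18.9% were. The remaining pair within run codes, Ggps1 higher with Aminophylline, is named for completeness after its value was seen. Ggps1 had 42.2 CPM with Aminophylline, its highest value of all drugs, against a drug median of 34.5 CPM. This pair also passed with lane as the term in limma, where 2.77% of all genes were called higher.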

How the data were processed

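Whole-number counts per gene were deposited by the authors as 1 table, with a column for each drug and vehicle library; 0 columns were without a sample. The submitters' processing notes name STAR 2.4.0, Subread 1.4.6, edgeR 3.10.5, limma and the build mm10, without their roles; libraries were stranded mRNA per the labels' protocols, and the deposited RPKM values were not used. Counts were scaled with TMM factors to CPM. Genes with low counts were left out by edgeR's filterByExpr.

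Each drug and each drug class was compared with the 9 vehicles by edgeR 4.0.16 (quasi-likelihood test), and each drug with the rest of its run code by limma 3.58.1 (log2 CPM, prior count 2, run code as a term). P-values were adjusted over all genes (Benjamini-Hochberg) at 0.05; tests are two-sided. DESeq2 1.42.0 was an alternative, in R 4.3.3; Python 3.11.15 with pandas 2.3.3 made the summaries. The edgeR test against vehicle and the limma test with run code were first tested on simulated data. Those data held no differences between lanes, and the alternatives were not simulated. The part of each transcript shared with other genes was counted in windows of 50 bases of GENCODE transcripts.

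The members and lists were chosen with earlier results of these data known. All 27 members may be named. Drugs were named from the classes, and as those with most members past the threshold, up to 6 in each direction. Other genes came from the marker and pathway lists, or as the 10 nearest to the member score with a mean of at least 1 CPM. Some genes of the pathway and its targets are not reported here. Groups with 1 library have no replicate check of their own, so the spread comes from the vehicles or from all libraries. Alternatives were RLE factors, no filter, DESeq2, run code or lane as a term, robust variances, and leaving out vehicles or class members.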

Additional observations from a re-analysis of the deposited data

How the results depend on the processing

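Of the alternative values of counts, scores and co-variation, 166 stayed within the set limits (a count within 1.5 times, a score within 1 SD) and 15 moved; of single members called with Luteolin, CE-326597 or Ursodiol, 68 kept the call, 17 lost it and none changed sign. Against vehicle, the 28 named drugs had 0 member calls, and 6 with DESeq2 and 0 to 1 when 1 vehicle was left out. Without vehicles 6, 7 and 8 together, chosen after seeing the data, they had 23, and all 218 drugs 31. The 23 were 3.04% of member tests, against 1.39% of all gene tests. An edgeR fit with run code as a term over all libraries gave the named drugs 21 calls. These were 2.78% of member tests, against 2.99% of all gene tests in these drugs. The reference in that fit is the other libraries of the run code, not the vehicles alone. For fibrates, the same fit gave 1 member (Ggps1, lower, where 5.89% of all genes were lower). Within run codes, lane as the term gave 1 call for Luteolin (6 with run code), 0 for CE-326597 (4), 19 for Ursodiol (7) and 49 over all drugs (22). Testing every gene without a filter on low counts gave 2 for Ursodiol, 13 over all drugs and 2 for the 25 other named drugs, with more genes tested. Those of Ursodiol were Idi1 and Tm7sf2, both lower, where 2.52% of all genes were called lower. Those of the 25 others were Pmvk higher with Formoterol, where 0.921% of all genes were called higher, and Ggps1 higher with Nilotinib, where 6.91% were. With RLE size factors Fenofibrate lost Lbr within its run code and kept Ggps1, and without the filter it had neither. The run-centred score was 0.58 for Luteolin and 0.62 for CE-326597, and 0.2465 and 0.1876 when centred on lane. The cause of these shifts was not tested. No paired analysis was possible because each drug had 1 library and only vehicles carried replicate numbers.

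Each drug rests on 1 library, so no difference has a replicate of the drug, and class tests pool 2 to 6 different drugs. Drug concentrations are not given in the sources used here. Lanes held 4 libraries in most cases, so the lane fits set a drug against 3 others. Idi1 and Fdps had few reads and share sequence with other genes.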

Other observations

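Febuxostat, an inhibitor of xanthine oxidase, had 0 members past the threshold within its run code in limma, and is described after its values were seen. With lane as the term it had 17 members higher, where 4.1% of all genes (639 of 15474) were called higher, and Scap lower, where 9.03% were called lower. Hmgcs1 had 805 CPM with Febuxostat and 458, 318 and 348 CPM in its lane mates Cortisone Acetate, Duloxetine·HCl and Everolimus (1.1 ± 0.37 SE, adjusted p = 0.0313 in limma), while the rest of the run reached from 318 to 1031 CPM. Scap had 116 CPM with Febuxostat against 133, 149 and 142 CPM in the lane mates (-0.28 ± 0.09). The astrocytic score was -0.32 with Febuxostat against 0.18, 0.52 and 0.37 in the lane mates, and the neuronal score 0.11 against -0.11, -0.36 and -0.16. The activity score was -0.99 against -0.21, -0.51 and -0.31, lower with Febuxostat, whereas over all libraries the member score and the activity score were positively related.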
